A study of Homo sapiens with 28 samples.

Results

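A set of 9 genes of mucus-forming and mucous secretory cells were followed in 28 RNA-seq libraries of A549 and H1944, which are human lung adenocarcinoma cell lines. They were taken by symbol as a named set: MUC1, MUC4, MUC5AC, MUC5B, MUC13, MUC16, AGR2, SPDEF and TFF1. The set was chosen with earlier results of these data known. All 9 were found among the 60483 gene rows of the deposited count table. Both lines carried MGT#1-mVenus, a fluorescent reporter, and were exposed for 11 days to TGF-β1 at 5 ng/ml or to GSK126, an inhibitor of the histone methyltransferase EZH2, at 5 μM. Treated cells were then sorted into a high and a low gate of mVenus, and naive cells were profiled as well. The 10 groups were, in each line, TGF-β1 high, TGF-β1 low, GSK126 high, GSK126 low and naive. Each held 3 libraries with the letters A, B and C, except A549 GSK126 high (A and B) and A549 TGF-β1 low (A and C), whose remaining libraries were not analysed here. The labels give no vehicle control, and no gate and no day for naive cells. The effects of treatment, of sorting and of any difference in time therefore cannot be told apart in a comparison with naive cells. They also do not say whether the letters mark separate cultures, and p-values therefore measure the spread between these libraries, which may be technical.

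Mucins are long proteins with serine- and threonine-rich stretches that are covered with O-linked sugars. MUC5AC and MUC5B are the gel-forming mucins of airway mucus, secreted from granules of goblet and gland cells. MUC1, MUC4, MUC13 and MUC16 are anchored in the cell membrane by a transmembrane segment and form a barrier at the apical surface. AGR2 is a protein disulfide isomerase of the endoplasmic reticulum needed for the folding of secreted mucins, SPDEF is an ETS-family transcription factor that directs goblet cell differentiation, and TFF1 is a small trefoil peptide secreted with mucus. Mucinous lung adenocarcinomas make several of these products, often with loss of the lung lineage factor NKX2-1.

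The sequences below show the repeats that make mucin reads hard to place, and the start regions of some members. Whether these sequences bear on the changes in level was not tested. In the GENCODE 29 transcripts (GRCh38), the coding repeat of MUC1 had a period of 60 bases and that of MUC4 a period of 48 bases. The unit shown occurred without a mismatch 19 times in MUC1 and 14 times in MUC4, and copies with any difference were not counted.
MUC1 coding repeat unit: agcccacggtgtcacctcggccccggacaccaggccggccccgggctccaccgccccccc
MUC4 coding repeat unit: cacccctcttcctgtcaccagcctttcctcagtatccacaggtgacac
Of all 75-base windows of the longest coding transcript, 37.1% recurred within MUC1, 17.6% within MUC4, 15.2% within MUC5AC, 23.8% within MUC5B and 0.434% within MUC16. No such window of the 9 genes was shared with a transcript of another gene. Reads inside such repeats can be placed at more than 1 position of the same gene, and the sources used here do not give how the authors' counting treated them.

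The start regions were taken from RefSeq (GRCh38.p14), 250 bases before to 50 after each gene's start, and were matched for 6 of the 9 members. MUC5AC, MUC5B and TFF1 were not matched. Capitals mark matches to 4 motifs searched on both strands, which do not overlap one another here: CACCTG, the E-box read by the SNAI and ZEB repressors, TGTTTAC and TATTTAC, read by forkhead factors, and TATAAA, the TATA box. The 4 regions below are shown because each holds a match, and all lie on the minus strand.
MUC1, chr1:155192866-155193165: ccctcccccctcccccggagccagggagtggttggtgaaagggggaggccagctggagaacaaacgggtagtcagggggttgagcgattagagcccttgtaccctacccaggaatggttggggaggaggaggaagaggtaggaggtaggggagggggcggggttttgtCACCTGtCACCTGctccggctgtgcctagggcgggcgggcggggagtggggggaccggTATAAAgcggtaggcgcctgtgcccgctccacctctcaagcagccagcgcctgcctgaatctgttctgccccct
MUC16, chr19:9065702-9066001: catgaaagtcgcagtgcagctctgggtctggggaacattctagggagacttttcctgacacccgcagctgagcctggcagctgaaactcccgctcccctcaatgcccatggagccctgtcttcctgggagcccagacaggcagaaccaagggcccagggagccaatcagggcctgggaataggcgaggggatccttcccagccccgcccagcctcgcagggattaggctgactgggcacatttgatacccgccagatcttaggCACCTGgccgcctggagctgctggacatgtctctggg
AGR2, chr7:16804950-16805249: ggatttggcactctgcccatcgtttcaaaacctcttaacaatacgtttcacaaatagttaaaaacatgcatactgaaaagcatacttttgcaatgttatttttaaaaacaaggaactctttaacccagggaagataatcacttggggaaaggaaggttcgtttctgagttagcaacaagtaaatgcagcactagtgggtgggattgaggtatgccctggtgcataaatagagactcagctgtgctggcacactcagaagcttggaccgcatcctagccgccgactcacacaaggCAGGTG
SPDEF, chr6:34556280-34556579: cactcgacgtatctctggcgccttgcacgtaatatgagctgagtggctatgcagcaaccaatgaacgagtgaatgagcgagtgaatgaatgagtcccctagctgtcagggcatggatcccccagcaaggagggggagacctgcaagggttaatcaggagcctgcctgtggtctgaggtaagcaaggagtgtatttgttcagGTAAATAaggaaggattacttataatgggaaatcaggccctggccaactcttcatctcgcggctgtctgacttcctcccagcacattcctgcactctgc
MUC1 held CACCTG at positions -82 and -75 from the start and TATAAA at -24. MUC16 held CACCTG at 13, and AGR2 held it at 44 in the reverse orientation, printed as CAGGTG. SPDEF held TATTTAC at -49 in the reverse orientation, printed as GTAAATA. MUC4 (chr3:195811880-195812179) and MUC13 (chr3:124934702-124935001) held none of the 4. Among all 27305 start regions of the same length, CACCTG occurred in 20.6%, TGTTTAC in 3.41%, TATTTAC in 2.77% and TATAAA in 12%. GC content was 65.7% for MUC1, 62% for MUC4 and MUC16, 52% for SPDEF, 43.7% for AGR2 and 41% for MUC13, against a median of 58.3% over all regions. A match is a run of letters, not a measured binding site. The RefSeq start of MUC16 lies outside the GENCODE 29 gene, and those of AGR2, MUC13 and MUC4 lie inside it, so other starts of these genes were not searched.

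Total counts ran from 2013449 to 9550143 in the 13 A549 libraries and from 1660148 to 13280592 in the 15 H1944 libraries. Levels are CPM, the counts scaled to each library's total, and CPM per kb of exon where genes are compared. The mVenus transcript was higher in every high-gate library than in every low-gate library of the same line and treatment. Reads of 374 olfactory receptor genes, each averaging under 5 CPM in every group, were taken as a measure of background. They summed to 5.99 to 305 CPM in A549 and to 3.62 to 73.2 CPM in H1944, with the highest sum in A549 TGF-β1 high library B. Results in A549 were also computed without TGF-β1 high library B and naive library A (195 CPM), the 2 libraries richest in such reads. NKX2-1 reached at most 1.77 CPM in A549 and 0.833 CPM in H1944. The 10 markers of alveolar type 2 cells and lung adenocarcinoma, NKX2-1 among them, summed to 24.6 to 60.7 CPM in A549. In H1944 they summed to 4.98 to 13.9 CPM under TGF-β1, 17.9 to 28.9 CPM under GSK126 and 9.56 to 13 CPM in naive cells. ABCA3 had the highest median of that list, 35 CPM in A549 and 8.33 CPM in H1944. Summed markers of blood cells (2.33 to 27.3 CPM in A549, 0 to 14 in H1944) and of endothelium (0 to 54.5 and 4.53 to 19.3 CPM) were low in both lines.

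The mucous products MUC5AC, MUC5B, AGR2 and SPDEF fell in both lines under TGF-β1, each to under 5% of the naive level in pooled counts. Of the surface mucins, MUC13 fell under TGF-β1 in both lines, and MUC1 and MUC16 rose under GSK126 in H1944. Under TGF-β1, 6 of the 9 members fell and 0 rose in A549, where 19.3% of all 19842 tested genes passed (7.77% higher, 11.5% lower). The test was the quasi-likelihood F test of edgeR, and passing means an adjusted p under 0.05. In H1944 all 8 tested members fell under TGF-β1, where 63.7% of 13621 genes passed (32.1% higher, 31.6% lower). TFF1 was too low in H1944 to be tested. The median log2 change of the members was -5.15 in A549 and -5.10 in H1944, against 0.05 and -0.01 over all tested genes. Under GSK126, 3 of 9 fell and 0 rose in A549 (6.87% of all genes passed, 3.66% higher and 3.21% lower), while in H1944 2 of 8 rose and 5 fell (40.1% of all genes passed, 21.4% higher and 18.7% lower). Their median changes were -0.98 in A549 and -0.78 in H1944, against -0.16 and 0.00 over all genes. The A549 count under GSK126 was 1 without naive library C, and 5 without TGF-β1 high library B. Both treatments were set against the same naive libraries, so their changes share any deviation of those. Bulk RNA cannot tell fewer cells that make a transcript from less of it per cell.

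Marker sums also moved, not always in the direction of the members. The sum of 8 epithelial markers was 5010 to 7390 CPM in A549 TGF-β1 libraries, 8040 to 10800 CPM in GSK126 libraries and 12200 to 12800 CPM in naive libraries. In H1944 it was 1510 to 1740 CPM under TGF-β1, 4960 to 7700 CPM under GSK126 and 5000 to 5630 CPM in naive cells. Marker sums of other epithelial cell types were low and moved in H1944. The 7 basal cell markers summed to 26.3 to 33.8 CPM under TGF-β1, 15.6 to 33.7 CPM under GSK126 and 3.74 to 6.02 CPM in naive cells. The 8 multiciliated cell markers summed to 38.8 to 62.7 CPM under TGF-β1, 38.5 to 51.5 CPM under GSK126 and 17.5 to 25.2 CPM in naive cells. The dynein gene DNAH5 had the highest median of that list, 37.1 CPM over the H1944 libraries, and the multiciliated factor FOXJ1 had a median of 0. In A549 the basal sum was 19.1 to 42.6 CPM under TGF-β1, 14.3 to 26.3 CPM under GSK126 and 11 to 20.1 CPM in naive cells, and the multiciliated sum was 18 to 79.8 CPM under TGF-β1, 12.2 to 36.7 CPM under GSK126 and 13.9 to 37.1 CPM in naive cells. The part of these shifts in the members' changes was not tested.

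**Figure D1:**
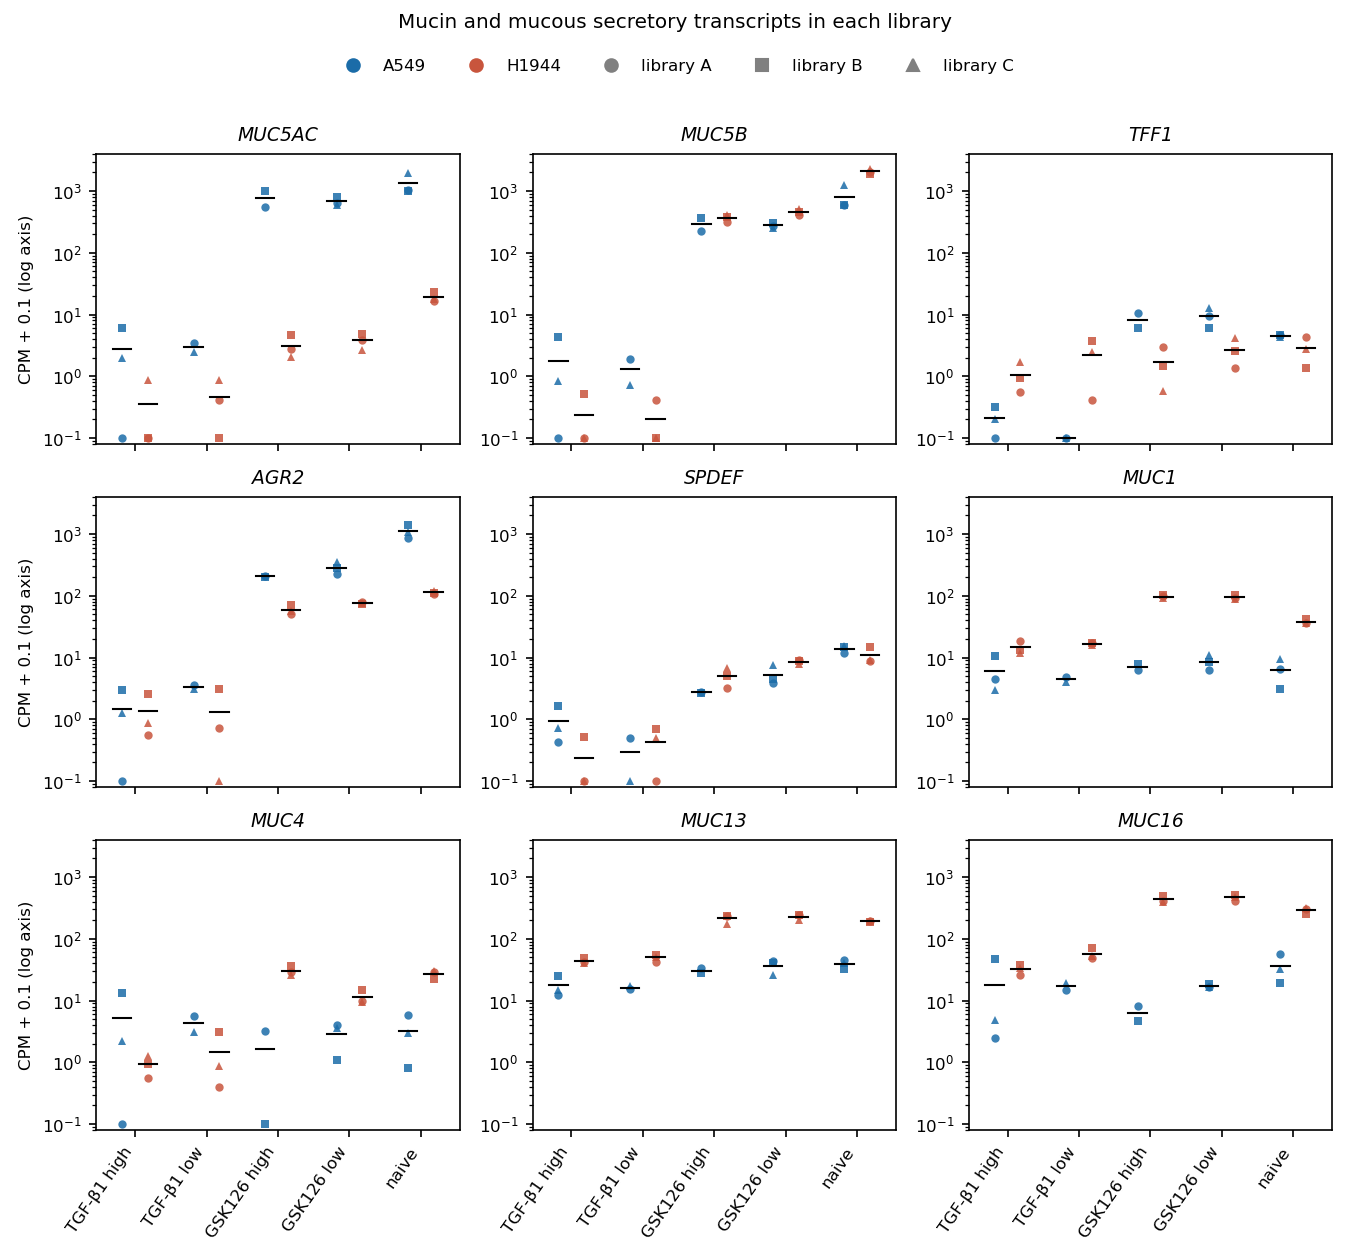
CPM of each member in every library (points, on a log axis after adding 0.1) in the 5 groups of A549 (blue) and H1944 (red); bars mark group means and symbols the library letter. MUC5AC, MUC5B, AGR2 and SPDEF sit lowest under TGF-β1 in both lines, and MUC5AC is far higher in A549 than in H1944.

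MUC5AC lies on chromosome 11 (1157953 to 1201138, plus strand, GRCh38). In A549 it had 0, 5.99 and 1.89 CPM in TGF-β1 high libraries A, B and C and 3.39 and 2.34 CPM in TGF-β1 low libraries A and C. It had 548 and 1007 CPM in GSK126 high libraries and 646, 806 and 586 CPM in GSK126 low libraries, against 1027, 1012 and 1990 CPM in naive libraries. Every treated library lay below every naive one, and the TGF-β1 libraries lay far below the rest. Pooled TGF-β1 counts stood at 0.207% of the naive level (95% exact interval 0.166 to 0.256%, counting error only), a log2 change of -9.12 ± 0.51 (SE, adjusted p = 1.04e-09). Under GSK126 the change was -0.98 ± 0.36 and did not pass (adjusted p = 0.14). It passed without TGF-β1 high library A (-1.0 ± 0.29, adjusted p = 0.033) or B (-0.99 ± 0.29, adjusted p = 0.0381), both of which enter the shared spread, and without a filter on low counts (-1.05 ± 0.30, adjusted p = 0.0286).

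In H1944 the MUC5AC transcript was scarce. It had 0, 0 and 0.786 CPM in TGF-β1 high libraries, 0.306, 0 and 0.784 CPM in TGF-β1 low libraries, 2.64, 4.49 and 1.93 CPM in GSK126 high libraries and 3.83, 4.7 and 2.59 CPM in GSK126 low libraries. The naive libraries held 16.4, 23.3 and 18 CPM, above all treated ones. It fell under both treatments, with log2 changes of -5.63 ± 0.42 under TGF-β1 (adjusted p = 4.00e-16) and -2.60 ± 0.27 under GSK126 (adjusted p = 3.19e-11).

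MUC5B, the neighbour of MUC5AC on the same strand (1223066 to 1262172), was abundant in both lines. In A549 it had 0, 4.21 and 0.733 CPM in TGF-β1 high libraries, 1.82 and 0.624 CPM in TGF-β1 low libraries, 225 and 359.8 CPM in GSK126 high libraries, 274, 305 and 250.4 CPM in GSK126 low libraries, and 598, 583 and 1232 CPM in naive libraries. No treated library reached a naive one. It fell by 9.34 ± 0.54 under TGF-β1 (adjusted p = 2.26e-09) and by 1.60 ± 0.37 under GSK126 (adjusted p = 0.0128). The GSK126 change did not pass without GSK126 high library A (-1.49 ± 0.44, adjusted p = 0.0754), without naive library C (-1.11 ± 0.36, adjusted p = 0.0937), by DESeq2 (-1.57 ± 0.60, adjusted p = 0.0665) or with the high gate alone (-1.46 ± 0.49, adjusted p = 0.116).

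H1944 held the highest MUC5B level, and almost none was left under TGF-β1. Only 2 MUC5B reads were counted in the 6 TGF-β1 libraries, 1 in high library B (0.416 CPM) and 1 in low library A (0.306 CPM), the others being at 0. GSK126 high libraries had 315, 383 and 415 CPM and GSK126 low libraries 409, 458 and 512 CPM, against 2050, 1886 and 2268 CPM in naive libraries. The pooled TGF-β1 level was 0.00624% of naive (95% exact interval 0.000756 to 0.0226%), and the fitted log2 change of -13.50 ± 0.18 (adjusted p = 1.24e-44) depends on the prior count at so few reads. Under GSK126 MUC5B fell by 2.44 ± 0.08 (adjusted p = 6.76e-28). An antisense gene, MUC5B-AS1, lies inside MUC5B and held at most 37 counts in any group. The sources used here do not give whether counting used the strand, so reads of the pair cannot be told apart if it did not.

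Levels of the genes on either side of the gel-forming pair were also read. MUC6 and MUC2, also gel-forming mucins of the cluster, averaged at most 3.32 and 2.84 CPM in any group. At these levels their changes cannot be set against those of the pair. MUC2 held 26 counts in naive H1944 libraries, 3 in TGF-β1 high and 1 in TGF-β1 low ones. TOLLIP, an adaptor of innate immune signalling next to the cluster, averaged 10.03 to 16.6 CPM in all 10 groups. Per kb of exon, the MUC5AC to MUC5B ratio in A549 was 2.79 ± 0.275 in GSK126 high libraries (SD, n = 2), 2.61 ± 0.182 in GSK126 low libraries (n = 3) and 1.8 ± 0.0695 in naive libraries (n = 3), and the lowest treated ratio (2.5) exceeded the highest naive one (1.85). In H1944 the ratio was 0.00879 ± 0.00378 in GSK126 high, 0.00877 ± 0.00297 in GSK126 low and 0.01 ± 0.0027 in naive libraries (n = 3 each), with overlap between the groups.

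AGR2 (chromosome 7, 16791811 to 16833433, minus strand) fell in all 4 comparisons with naive cells. In A549 it had 0, 2.88 and 1.15 CPM in TGF-β1 high libraries, 3.52 and 2.96 CPM in TGF-β1 low libraries, 209 and 204 CPM in GSK126 high libraries, 222, 282 and 355 CPM in GSK126 low libraries, and 864, 1417 and 1082 CPM in naive libraries. The 3 conditions did not overlap. The log2 change was -9.24 ± 0.41 under TGF-β1 (adjusted p = 1.16e-11) and -2.33 ± 0.29 under GSK126 (adjusted p = 2.31e-05). In H1944 AGR2 had 0.453, 2.5 and 0.786 CPM in TGF-β1 high libraries, 0.611, 3.01 and 0 CPM in TGF-β1 low libraries, 50.3, 70.5 and 56.8 CPM in GSK126 high libraries, 78.8, 74 and 76.8 CPM in GSK126 low libraries, and 108, 111 and 121 CPM in naive libraries. It fell by 6.60 ± 0.22 under TGF-β1 (adjusted p = 5.47e-28) and by 0.88 ± 0.11 under GSK126 (adjusted p = 2.28e-08), again with no overlap of the 3 conditions.

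SPDEF (chromosome 6, 34537802 to 34556333, minus strand) was present at low levels in both lines. In A549 it had 0.333, 1.55 and 0.628 CPM in TGF-β1 high libraries, 0.391 and 0 CPM in TGF-β1 low libraries, 2.67 and 2.57 CPM in GSK126 high libraries, 3.76, 4.47 and 7.34 CPM in GSK126 low libraries, and 11.6, 14.5 and 15.1 CPM in naive libraries. It fell by 5.15 ± 0.52 under TGF-β1 (adjusted p = 3.53e-07) and by 2.0 ± 0.45 under GSK126 (adjusted p = 0.00794). The GSK126 change did not pass without naive library B (-1.85 ± 0.57, adjusted p = 0.077) or C (-1.91 ± 0.59, adjusted p = 0.0712), or with the low gate alone (-1.61 ± 0.51, adjusted p = 0.0901). In H1944 the 6 TGF-β1 libraries held 3 SPDEF reads in all, 1 in high library B and 1 each in low libraries B and C. GSK126 high libraries had 3.08, 4.84 and 6.74 CPM and GSK126 low libraries 8.93, 8.66 and 7.77 CPM, against 8.83, 15 and 9.11 CPM in naive libraries. Those reads were 2.08% of the naive level (95% exact interval 0.425 to 6.18%). It fell by 5.47 ± 0.52 under TGF-β1 (adjusted p = 7.71e-13) and by 0.88 ± 0.28 under GSK126 (adjusted p = 0.00982). By gate, the GSK126 change was -1.32 ± 0.35 in the high gate (adjusted p = 0.00223) and -0.45 ± 0.32 in the low gate (adjusted p = 0.298), and the pooled change did not pass without naive library B (-0.66 ± 0.32, adjusted p = 0.105).

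TFF1 (chromosome 21, 42362282 to 42366594, minus strand) stood apart from the other secretory members under GSK126. In A549 it had 0, 0.222 and 0.105 CPM in TGF-β1 high libraries and 0 in both TGF-β1 low libraries, 10.3 and 5.99 CPM in GSK126 high libraries, 9.2, 5.96 and 12.5 CPM in GSK126 low libraries, and 4.49, 4.48 and 4.27 CPM in naive libraries. All GSK126 libraries lay above all naive ones, with a pooled ratio of 198% (95% exact interval 150 to 261%), but the log2 change of 0.89 ± 0.46 did not pass (adjusted p = 0.332). Under TGF-β1, 2 reads were left in 5 libraries, 1.45% of the naive level (95% exact interval 0.173 to 5.4%), a fitted change of -6.38 ± 0.67 (adjusted p = 8.37e-07). In H1944, TFF1 ran from 0.306 to 3.61 CPM under TGF-β1, from 0.481 to 4.03 CPM under GSK126 and from 1.25 to 4.2 CPM in naive libraries, which overlapped.

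Among the surface mucins, MUC1 (chromosome 1, 155185824 to 155192916, minus strand) moved in opposite directions under the 2 treatments in H1944. There it had 18.6, 13.3 and 11.8 CPM in TGF-β1 high libraries, 16.8, 16.9 and 16.1 CPM in TGF-β1 low libraries, 97.6, 101.9 and 91 CPM in GSK126 high libraries, 91.6, 101.7 and 88 CPM in GSK126 low libraries, and 36.6, 41.2 and 35.5 CPM in naive libraries. The 3 conditions did not overlap. MUC1 fell by 1.20 ± 0.13 under TGF-β1 (adjusted p = 1.25e-10) and rose by 1.24 ± 0.11 under GSK126 (adjusted p = 7.16e-13). In A549 it ran from 2.83 to 10.4 CPM under TGF-β1, from 6.11 to 10.8 CPM under GSK126 and from 3.04 to 9.3 CPM in naive libraries. The conditions overlapped, with changes of -0.51 ± 0.40 under TGF-β1 (adjusted p = 0.507) and 0.23 ± 0.41 under GSK126 (adjusted p = 0.819).

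MUC16 (chromosome 19, 8848844 to 8981342, minus strand), which carries the CA-125 antigen, had a like pattern in H1944. It had 25.4, 37.1 and 33.4 CPM in TGF-β1 high libraries, 48.3, 71.1 and 52.9 CPM in TGF-β1 low libraries, 410.5, 491 and 400.5 CPM in GSK126 high libraries, 406, 518 and 480.4 CPM in GSK126 low libraries, and 308, 254 and 312 CPM in naive libraries. It fell by 2.71 ± 0.10 under TGF-β1 (adjusted p = 6.68e-25) and rose by 0.51 ± 0.10 under GSK126 (adjusted p = 2.92e-05). In A549 MUC16 had 2.33, 46.3 and 4.71 CPM in TGF-β1 high libraries, 14.7 and 18.9 CPM in TGF-β1 low libraries, 8.02 and 4.56 CPM in GSK126 high libraries, 16.3, 18.4 and 16.4 CPM in GSK126 low libraries, and 55.9, 19.2 and 32 CPM in naive libraries. The value of 46.3 CPM lay in TGF-β1 high library B, the library with 305 CPM of olfactory receptor reads. With all libraries neither change passed, -1.22 ± 0.60 under TGF-β1 (adjusted p = 0.222) and -1.79 ± 0.65 under GSK126 (adjusted p = 0.167). Without that library both passed, at -2.17 ± 0.25 under TGF-β1 (adjusted p = 5.97e-07) and -1.81 ± 0.25 under GSK126 (adjusted p = 2.58e-05). Without the 2 A549 libraries richest in olfactory reads they were -1.74 ± 0.25 (adjusted p = 6.08e-06) and -1.44 ± 0.25 (adjusted p = 1.98e-04).

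MUC13 (chromosome 3, 124905442 to 124953819, minus strand), an epidermal-growth-factor-domain mucin of the gut and airway surface, fell under TGF-β1 in both lines and did not pass under GSK126 in either. In A549 it had 12.3, 25.3 and 14.7 CPM in TGF-β1 high libraries, 15.1 and 16.9 CPM in TGF-β1 low libraries, 33.2 and 27.4 CPM in GSK126 high libraries, 42.9, 39.7 and 25.5 CPM in GSK126 low libraries, and 45.7, 32.1 and 41 CPM in naive libraries. Its log2 change was -1.41 ± 0.20 under TGF-β1 (adjusted p = 1.89e-05) and -0.31 ± 0.20 under GSK126 (adjusted p = 0.457). In H1944 it had 41.2, 49.1 and 39.7 CPM in TGF-β1 high libraries, 42.5, 55.4 and 51.3 CPM in TGF-β1 low libraries, 238, 236 and 175 CPM in GSK126 high libraries, 242, 241 and 202 CPM in GSK126 low libraries, and 194, 184 and 195 CPM in naive libraries. The change was -1.98 ± 0.10 under TGF-β1 (adjusted p = 8.18e-22) and 0.11 ± 0.09 under GSK126 (adjusted p = 0.393).

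MUC4 (chromosome 3, 195746765 to 195812277, minus strand), a partner of the ERBB2 receptor, separated the gates in H1944. It had 0.453, 0.833 and 1.18 CPM in TGF-β1 high libraries, 0.306, 3.01 and 0.784 CPM in TGF-β1 low libraries, 28.8, 35.9 and 26 CPM in GSK126 high libraries, 9.57, 14.6 and 9.49 CPM in GSK126 low libraries, and 28.6, 22.5 and 29.5 CPM in naive libraries. GSK126 high libraries overlapped the naive range, and all GSK126 low libraries lay below it. MUC4 fell by 4.73 ± 0.29 under TGF-β1 (adjusted p = 6.86e-19). Over both GSK126 gates it fell by 0.67 ± 0.17 (adjusted p = 0.00161), which did not pass without naive library C (-0.58 ± 0.23, adjusted p = 0.0568). By gate, the change was 0.04 ± 0.20 in the high gate (adjusted p = 0.898) and -1.38 ± 0.22 in the low gate (adjusted p = 1.26e-06). In A549 MUC4 ran from 0 to 13.3 CPM under TGF-β1, highest in high library B, from 0 to 3.97 CPM under GSK126 and from 0.723 to 5.65 CPM in naive libraries. Neither change passed, 0.45 ± 0.92 under TGF-β1 (adjusted p = 0.88) and -0.54 ± 0.97 under GSK126 (adjusted p = 0.82).

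**Figure D2:**
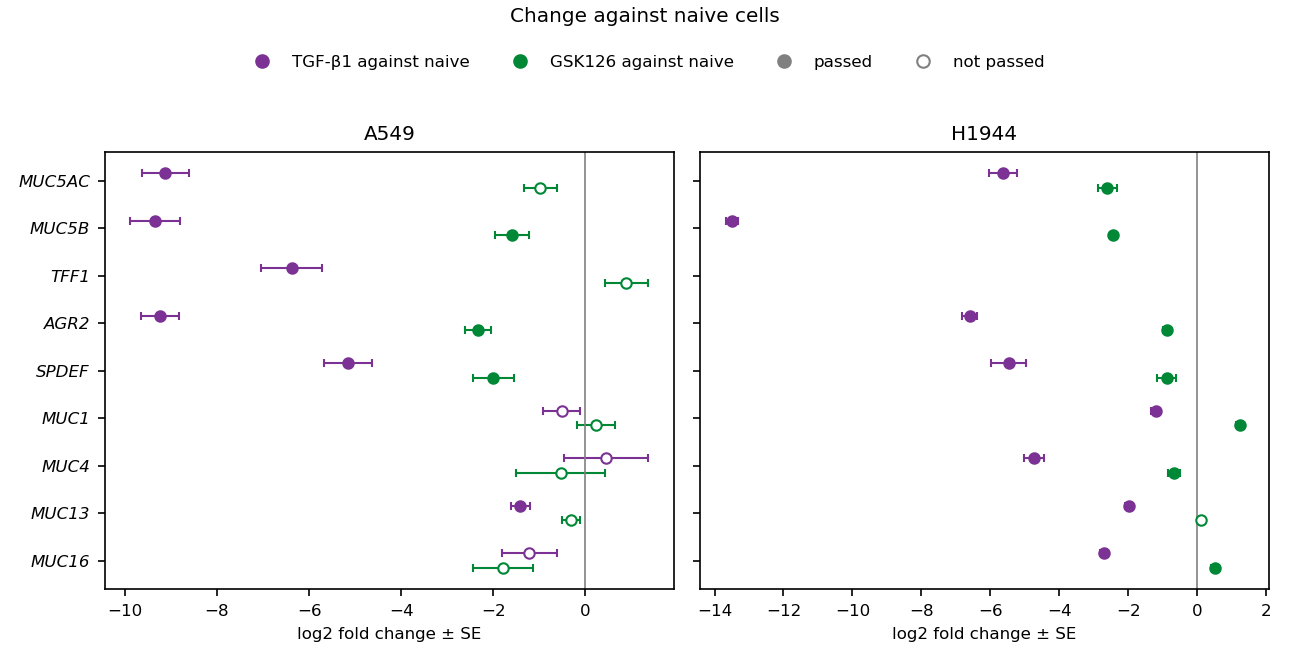
Fitted log2 fold change against naive cells with its SE for each member in A549 (left) and H1944 (right), under TGF-β1 (purple) and GSK126 (green); filled points passed at an adjusted p under 0.05. All points left of -5 are secretory members under TGF-β1, and MUC1 and MUC16 are the points right of 0 that passed, in H1944 under GSK126.

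Set side by side per kb of exon, to compare levels of different genes, the 6 mucins changed in makeup as well as in sum. Recurring 75-base windows made up 37.1% of MUC1, 23.8% of MUC5B, 17.6% of MUC4, 15.2% of MUC5AC, 0.434% of MUC16 and 0% of MUC13. How reads in them were counted is not known, so shares between mucins may be off, MUC13's upward if such reads were dropped. In A549 their sum was 7.11 ± 3.98 CPM per kb in TGF-β1 high libraries (SD, n = 3), 6.3 ± 0.11 in TGF-β1 low libraries (n = 2), 70.6 ± 22.6 in GSK126 high libraries (n = 2), 66.4 ± 9.52 in GSK126 low libraries (n = 3) and 133.8 ± 53 in naive libraries (n = 3). MUC13 made up 73.9% of it in TGF-β1 high and 72.4% in TGF-β1 low libraries. MUC5AC made up 62% in GSK126 high, 58.5% in GSK126 low and 57.3% in naive libraries. In H1944 the sum was 16.3 ± 1.54 in TGF-β1 high, 19.1 ± 2.17 in TGF-β1 low, 114 ± 10.6 in GSK126 high, 121 ± 6.21 in GSK126 low and 183 ± 11.9 CPM per kb in naive libraries (n = 3 each). MUC13 was the leading mucin in all 4 treated groups, with 76.1% in TGF-β1 high, 74.2% in TGF-β1 low, 54.1% in GSK126 high and 53.8% in GSK126 low libraries. MUC5B led in naive H1944 cells with 60.8%, ahead of MUC13 with 29.9% and MUC1 with 4.4%. Summed over all 9 members, their share of all counts in A549 was 0.00527 ± 0.00499% in TGF-β1 high, 0.134 ± 0.0403% in GSK126 high and 0.337 ± 0.0928% in naive libraries.

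**Figure D3:**
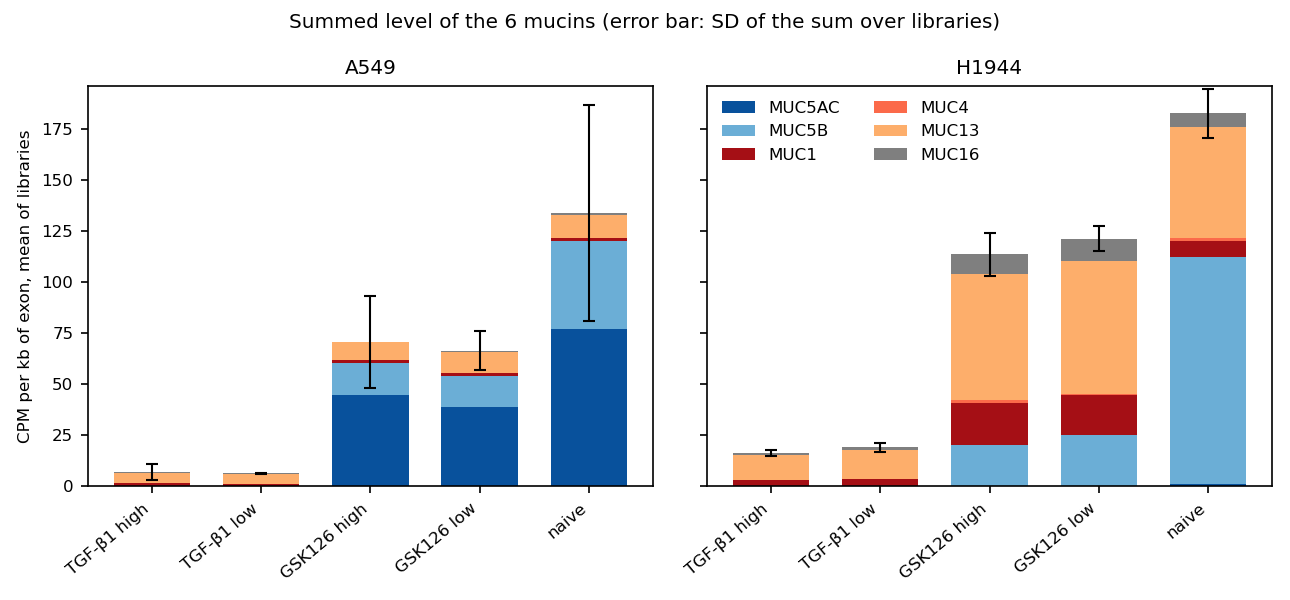
Stacked mean CPM per kb of exon of the 6 mucins in each group of A549 (left) and H1944 (right), with the SD of the sum over libraries as error bar. MUC5AC and MUC5B make up most of the A549 bars outside TGF-β1, and MUC13 most of each treated H1944 bar.

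The gates were compared to ask whether cells with a bright reporter differed from dim ones after the same treatment. In H1944 under GSK126, 1 member was higher and 1 lower in the high gate, out of 8 tested (7.42% of all genes passed, 3.87% higher and 3.55% lower). MUC4 rose by 1.42 ± 0.22 (adjusted p = 1.94e-05), with every high library above every low one. MUC5B fell by 0.31 ± 0.10 (adjusted p = 0.0446), with overlap at 415 CPM in a high and 409 CPM in a low library. Within each letter MUC5B was lower in the high gate, at 315 and 409 CPM in A, 383 and 458 CPM in B and 415 and 512 CPM in C for high and low. The MUC5B call did not hold without GSK126 high library A (-0.22, adjusted p = 0.275), GSK126 low library B (-0.33, adjusted p = 0.117) or C (-0.24, adjusted p = 0.202), or naive library C (-0.31, adjusted p = 0.0552). AGR2 (-0.37 ± 0.14, adjusted p = 0.107) and SPDEF (-0.87 ± 0.36, adjusted p = 0.139) were lower in every high than in every low library and did not pass. The share of all genes that separated the gates in this way is not given for any gate comparison. AGR2 passed without GSK126 high library B (-0.53 ± 0.15, adjusted p = 0.0189) and by DESeq2 (-0.39 ± 0.14, adjusted p = 0.0494). For MUC1, MUC5AC, MUC13 and MUC16 the gates overlapped, with changes between -0.28 and 0.06, none of which passed. MUC5AC and MUC13 were lower in the high gate within all 3 letters. Fitted with the letter as a block, MUC5B was -0.31 and passed, and MUC5AC (-0.26) and MUC13 (-0.07) did not.

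In H1944 under TGF-β1, 1 of 8 members passed, where 0.0808% of all genes (11 genes) did, 0.0147% higher and 0.0661% lower. MUC16 fell by 0.79 ± 0.16 in the high gate (adjusted p = 0.0217), and the highest high library (37.1 CPM) lay below the lowest low library (48.3 CPM). This call rested on every library: without any 1 of the 6 TGF-β1 libraries, high or low A, B or C, the change ran from -0.90 to -0.64 with an adjusted p of 0.0596 to 0.57, and without naive library A it was -0.78 with an adjusted p of 0.06. MUC1 (-0.18 ± 0.20, adjusted p = 0.998) and MUC13 (-0.16 ± 0.15, adjusted p = 0.986) did not pass. Whether a gate difference itself differs between the treatments was not tested.

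In A549, 0 of 9 members passed between the gates under either treatment, and 0% of the 19842 genes did in each. Under GSK126, 980 genes had an unadjusted p under 0.05 in edgeR's test, 0 of them members, and DESeq2 called 0 genes. MUC16 (-1.28 ± 0.96, adjusted p = 0.744), AGR2 (-0.29 ± 0.36, adjusted p = 0.81) and SPDEF (-0.78 ± 0.63, adjusted p = 0.75) were lower in both high libraries than in all 3 low libraries. The share of all genes ordered in this way is not given here, so no result is read from it. Olfactory receptor reads also differed by gate, at 5.99 to 43.1 CPM in the high and 76 to 92.8 CPM in the low libraries. Their part in these differences was not tested. Under TGF-β1, 198 genes, 2 of them members, had an unadjusted p under 0.05, and DESeq2 called 15 genes and 0 members. AGR2 was lower in all 3 high than in both low libraries (-1.22 ± 0.57, adjusted p = 1) on 24 and 46 counts. SPDEF went the other way, 1.84 ± 0.84 (adjusted p = 1), on 14 and 3 counts. MUC16 differed by -0.10 ± 0.78 (adjusted p = 1), and by -2.01 ± 0.33 (adjusted p = 0.0076) without the 2 libraries richest in olfactory receptor reads. In that run such reads still differed by gate, at 99.5 and 121 CPM in the low libraries against 6.66 and 33 CPM in the high ones. The part of these reads in the MUC16 difference was not tested.

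**Figure D4:**
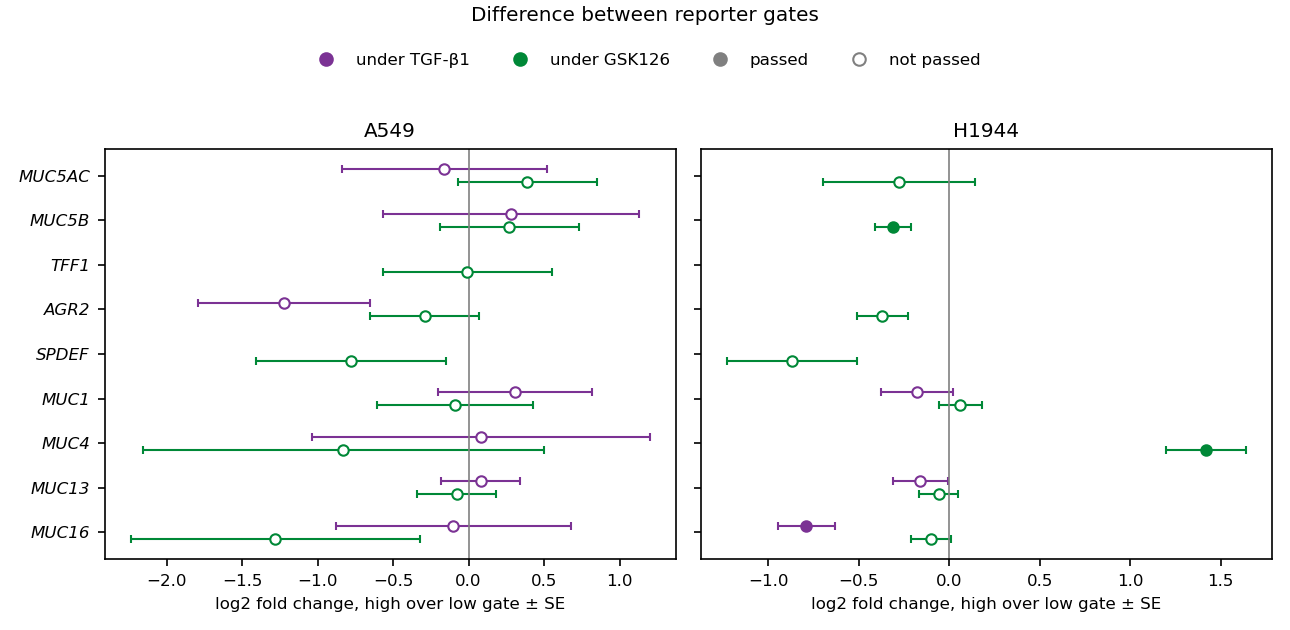
Log2 fold change of the high over the low gate with its SE under TGF-β1 (purple) and GSK126 (green) in each line; filled points passed, and members with fewer than 20 counts over both gates are left out. MUC4 under GSK126 in H1944, at 1.42, is the only point above 1, and MUC16 under TGF-β1 in H1944 lies at -0.79.

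TGF-β1 cells were also set against GSK126 cells, each taken over both gates. All 8 tested members were lower under TGF-β1 in H1944 (63.8% of all genes passed, 31.6% higher and 32.1% lower), from -2.09 ± 0.09 for MUC13 to -11.06 ± 0.20 for MUC5B, which rests on 2 reads. MUC16 differed by -3.22 ± 0.09 and MUC1 by -2.44 ± 0.11. In A549 6 of 9 were lower and 0 higher (19.7% of all genes passed, 8.01% higher and 11.7% lower). MUC5AC differed by -8.14 ± 0.49, MUC5B by -7.74 ± 0.50, TFF1 by -7.27 ± 0.65, AGR2 by -6.91 ± 0.37, SPDEF by -3.15 ± 0.52 and MUC13 by -1.11 ± 0.18. MUC1 (-0.74 ± 0.36, adjusted p = 0.173), MUC4 (1.00 ± 0.87, adjusted p = 0.444) and MUC16 (0.57 ± 0.62, adjusted p = 0.547) did not pass. MUC1 passed without TGF-β1 high library B (-1.01 ± 0.34, adjusted p = 0.0364).

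Naive H1944 cells differed from naive A549 cells in 7 of 9 members, 5 higher and 2 lower, in a fit of both lines in which 46.4% of 17918 genes passed (23.8% higher, 22.6% lower). All 4 surface mucins were higher in H1944: MUC4 by 3.21 ± 0.67 (adjusted p = 4.27e-04), MUC16 by 3.11 ± 0.49 (adjusted p = 3.02e-05), MUC1 by 2.63 ± 0.27 (adjusted p = 8.43e-10) and MUC13 by 2.32 ± 0.18 (adjusted p = 1.02e-12). MUC5B was higher in H1944 by 1.39 ± 0.28 (adjusted p = 2.35e-04), while its neighbour MUC5AC was lower by -6.11 ± 0.39 (adjusted p = 3.26e-12). AGR2 was lower in H1944 (-3.30 ± 0.27, adjusted p = 3.13e-11). SPDEF (-0.32 ± 0.40, adjusted p = 0.524) and TFF1 (-0.66 ± 0.62, adjusted p = 0.376) did not pass. With 1 line of each kind, these are differences between these lines. DESeq2's size factors moved the median of all genes in this comparison by -0.15.

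The change under GSK126 differed between H1944 and A549 for 3 of 9 members (9.92% of all genes, 6.17% with the higher and 3.75% with the lower change in H1944), given as H1944 minus A549. AGR2 fell less in H1944 (1.41 ± 0.32, adjusted p = 0.00277), MUC16 differed by 2.32 ± 0.65 (adjusted p = 0.0271) and MUC5AC by -1.66 ± 0.49 (adjusted p = 0.0313). AGR2 passed in every alternative run. MUC1 (0.99 ± 0.35, adjusted p = 0.074) and MUC5B (-0.91 ± 0.35, adjusted p = 0.113) did not pass, but did in 7 and 3 of 34 alternatives. SPDEF (1.06 ± 0.54, adjusted p = 0.251), MUC13 (0.40 ± 0.22, adjusted p = 0.302), TFF1 (-1.38 ± 0.78, adjusted p = 0.319) and MUC4 (-0.07 ± 1.08, adjusted p = 0.989) did not pass either. MUC16 did not pass without A549 GSK126 high library B, A549 naive library A or H1944 naive library A, B or C (1.97 to 2.37, adjusted p 0.0536 to 0.101), or without a filter on low counts (2.36, adjusted p = 0.0652). MUC5AC did not pass without A549 GSK126 high library B, A549 TGF-β1 low library A or C, A549 naive library A or B, H1944 GSK126 high library A or C, H1944 GSK126 low library C, or H1944 naive library B or C (adjusted p 0.0548 to 0.0969). It also did not pass by DESeq2 (-1.66 ± 0.62, adjusted p = 0.0539) or with a 1 CPM filter (-1.58 ± 0.52, adjusted p = 0.0961). The count of members was 5 without A549 TGF-β1 high library B, and 1 without A549 GSK126 high library B, A549 naive library A, or H1944 naive library B or C.

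Under TGF-β1 the change differed for 5 of 9 members (20% of all genes, 10.5% with the higher and 9.43% with the lower change in H1944). MUC4 (-5.30 ± 1.00, adjusted p = 3.95e-04), MUC5B (-4.39 ± 1.04, adjusted p = 0.00277) and MUC13 (-0.72 ± 0.22, adjusted p = 0.0185) had the lower change in H1944. AGR2 (2.47 ± 0.72, adjusted p = 0.0135) and TFF1 (5.14 ± 1.03, adjusted p = 3.17e-04) had the lower change in A549. MUC5AC (3.29 ± 1.63, adjusted p = 0.18), MUC16 (-1.64 ± 0.61, adjusted p = 0.0683), MUC1 (-0.84 ± 0.36, adjusted p = 0.0993) and SPDEF (-0.58 ± 0.87, adjusted p = 0.773) did not pass. Of 34 alternatives, MUC5AC passed in 2, among them DESeq2 (3.21 ± 0.91, adjusted p = 0.00297). MUC16 passed in 4 and MUC1 in 2. Differences for MUC5B, AGR2 and TFF1 rest on few reads in TGF-β1 libraries. TFF1 was too low to be tested in H1944 alone and entered here through the joint fit of both lines. In H1944 it held 20 reads under TGF-β1 and 49 in naive libraries, with overlapping CPM. AGR2 averaged 2.1 CPM under TGF-β1 in A549 and 1.23 CPM in H1944, against naive means of 1121 and 113 CPM. With both lines near the floor under TGF-β1, its difference also reflects the naive levels. MUC4 ran from 0.723 to 5.65 CPM in naive A549 libraries, and its change there under TGF-β1 was 0.45 ± 0.92 and did not pass. The part of this low level in the MUC4 difference was not tested. MUC5B did not pass without A549 TGF-β1 low library A (-3.86 ± 1.40, adjusted p = 0.0687), MUC13 without A549 TGF-β1 low library C (-0.61, adjusted p = 0.0907), without a filter on low counts (-0.64, adjusted p = 0.132) or with a 1 CPM filter (-0.64, adjusted p = 0.0937), and AGR2 without H1944 TGF-β1 low library B (1.79 ± 1.01, adjusted p = 0.25) or high library B (1.99 ± 0.91, adjusted p = 0.138).

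The 6 further lists held other genes of the mucous programme. Among mucous and airway secretory products, 1 rose and 5 fell of 15 tested in A549 under TGF-β1, and 1 rose and 3 fell of 6 in H1944, where 19.3% of all genes passed in A549 and 63.7% in H1944. SLPI, an antiprotease of airway mucus, averaged 0.908 CPM under TGF-β1 and 68.8 CPM in naive A549 cells (-6.46 ± 0.33), and 3.59 and 57.9 CPM in H1944 (-3.98 ± 0.21). LCN2, an iron-scavenging lipocalin, fell by 5.21 ± 0.43 in A549 and by 3.83 ± 0.40 in H1944. CEACAM6, a surface adhesion molecule, fell by 6.78 ± 0.25 in A549 (6.31 and 595 CPM) but rose by 1.04 ± 0.20 in H1944 (12.8 and 5.87 CPM), and the effects differed by 7.68 ± 0.29 (adjusted p = 2.23e-19). DMBT1, a scavenger-receptor mucosal protein, rose by 5.97 ± 0.37 in A549. Under GSK126, where 6.87% of all genes passed in A549 and 40.1% in H1944, 1 of 15 rose and 3 fell in A549, and 4 of 6 rose and 0 fell in H1944. DMBT1 rose by 5.00 ± 0.38 while LCN2 (-2.18 ± 0.37) and SLPI (-1.61 ± 0.25) fell in A549. CEACAM6 (3.87 ± 0.16), CEACAM5 (2.96 ± 0.17) and LCN2 (0.93 ± 0.23) rose in H1944. The list's median was -0.37 in A549 and -2.13 in H1944 under TGF-β1, and -1.07 and 1.18 under GSK126.

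Of the transcription factors and endoplasmic reticulum stress sensors of mucous cells, 1 rose and 8 fell of 22 in A549 and 2 rose and 14 fell of 20 in H1944 under TGF-β1, where 19.3% of all genes passed in A549 (11.5% lower) and 63.7% in H1944 (31.6% lower). The epithelial ETS factors ELF3 and EHF fell by 3.28 ± 0.20 and 3.36 ± 0.25 in A549 and by 2.74 ± 0.12 and 4.79 ± 0.22 in H1944. FOXA2, a forkhead factor that restrains goblet cell formation in mouse airway, fell in A549 (-2.06 ± 0.22). HNF4A, which marks gut-like lineages, rose there (0.70 ± 0.20). GATA6, an endoderm factor, rose in H1944 (3.01 ± 0.23) and KLF5 fell (-1.32 ± 0.08). Under GSK126, 0 of 22 rose and 5 fell in A549, among them FOXA1 (-1.41 ± 0.22), ELF3 (-1.40 ± 0.19) and HNF4A (-1.39 ± 0.22). In H1944, 6 of 20 rose and 7 fell. The share of all genes was 6.87% in A549 and 40.1% in H1944. FOXA2 rose by 1.96 ± 0.28 and KLF4 by 0.87 ± 0.13, while CREB3L1, a membrane-bound factor of the secretory pathway, fell by 4.31 ± 0.36 and XBP1, a stress factor of the endoplasmic reticulum, by 0.78 ± 0.09. The list's median was -0.62 in A549 and -1.19 in H1944 under TGF-β1, and -0.74 and -0.13 under GSK126.

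Enzymes that build mucin O-glycans moved both ways. Under TGF-β1, 6 of 29 rose and 6 fell in A549 and 13 of 26 rose and 8 fell in H1944, where 19.3% of all genes passed in A549 and 63.7% in H1944. GALNT10, which starts O-glycan chains, rose in A549 (2.09 ± 0.23) and H1944 (3.54 ± 0.10). GCNT3, which makes core branches, fell in A549 (-2.65 ± 0.20), as did B3GALT5 (-2.62 ± 0.26). B3GNT3, which extends chains, fell in H1944 (-3.67 ± 0.40), and the sialyltransferase ST3GAL1 rose there (2.80 ± 0.12). Under GSK126, 2 of 29 rose and 1 fell in A549 and 13 of 26 rose and 2 fell in H1944, where 6.87% of all genes passed in A549 and 40.1% in H1944. GALNT18 (2.03 ± 0.27) rose in A549, and B3GALT5 (2.97 ± 0.20) and ST3GAL1 (1.82 ± 0.12) in H1944. The list's median was 0.07 in A549 and 0.32 in H1944 under TGF-β1, and 0.01 and 0.42 under GSK126.

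Genes of granule release and ion transport held SLC12A2, the chloride importer of secreting epithelia. It averaged 78.5 CPM under TGF-β1, 226 CPM under GSK126 and 595 CPM in naive A549 cells, changes of -3.09 ± 0.20 and -1.53 ± 0.19. In H1944 it rose, by 0.99 ± 0.11 under TGF-β1 and by 1.44 ± 0.11 under GSK126. The effects differed between the lines by 3.92 ± 0.21 under TGF-β1 (adjusted p = 1.62e-15) and by 2.94 ± 0.20 under GSK126 (adjusted p = 2.25e-12). In this list, 2 of 23 rose and 6 fell in A549 under TGF-β1, 0 rose and 2 fell in A549 under GSK126, 5 of 17 rose and 5 fell in H1944 under TGF-β1, and 7 rose and 2 fell in H1944 under GSK126. The shares of all genes that passed in these comparisons were 19.3% in A549 under TGF-β1, 6.87% in A549 under GSK126, 63.7% in H1944 under TGF-β1 and 40.1% in H1944 under GSK126, and the H1944 count under TGF-β1 is near its share. MARCKS, a kinase substrate needed for granule release, rose by 1.43 ± 0.11 under TGF-β1 and by 1.68 ± 0.11 under GSK126 in H1944. The list's median was -0.10 in A549 and 0.05 in H1944 under TGF-β1, and -0.12 and 0.14 under GSK126.

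Of 22 ligands and receptors that can induce mucins, 7 rose and 5 fell in A549 and 10 rose and 8 fell in H1944 under TGF-β1, where 19.3% of all genes passed in A549 and 63.7% in H1944. HBEGF, a ligand of the EGF receptor, rose by 4.42 ± 0.28 in A549 and by 4.98 ± 0.22 in H1944. The receptor ERBB3 fell by 2.69 ± 0.48 and 5.79 ± 0.13, and NOTCH3 by 4.81 ± 0.31 and 2.79 ± 0.09. Under GSK126, 6 rose and 2 fell in A549 and 11 rose and 9 fell in H1944, where 6.87% of all genes passed in A549 and 40.1% in H1944. The nucleotide receptor P2RY2 (1.99 ± 0.27) and EGFR (1.14 ± 0.22) rose in A549, TGFA rose in H1944 (2.88 ± 0.33), and ERBB3 fell in A549 (-1.92 ± 0.49) and H1944 (-1.48 ± 0.09). Of other mucins, 0 of 13 passed in A549 under either treatment by edgeR. At an unadjusted p under 0.05 there were 2 under TGF-β1 and 1 under GSK126, and DESeq2 called 1 under each. In H1944, 1 of 5 rose under each treatment, which was MCAM, an adhesion molecule once called MUC18. It averaged 2.26 CPM under TGF-β1, 11 CPM under GSK126 and 0.201 CPM in naive H1944 cells. Medians of the ligand and receptor list were -0.13 in A549 and -0.09 in H1944 under TGF-β1, and 0.33 and 0.34 under GSK126.

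**Figure D5:**
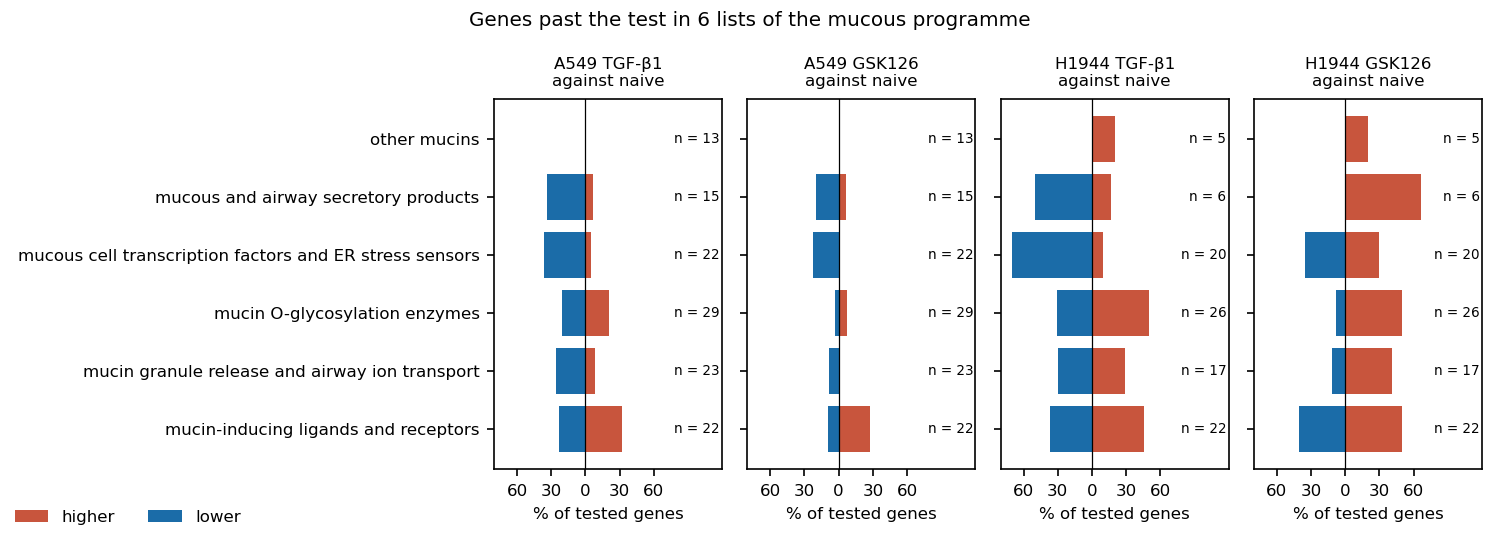
Share of tested genes of each list that passed higher (red, right of 0) or lower (blue, left of 0) against naive cells, with the number tested as n. The transcription factor bars reach furthest left in H1944 under TGF-β1, where 14 of 20 fell.

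Likeness between genes was measured as Pearson's r of log2(CPM + 1) over the 10 group means, among 12614 protein-coding genes, as a description without a test. The groups share lines, libraries and depth, and many genes follow the line and treatment alike. MUC1 and MUC13 were alike (r = 0.961), as were MUC1 and MUC16 (0.938) and MUC13 and MUC16 (0.938). MUC5B went with SPDEF (0.955) and AGR2 (0.924), and MUC5AC with AGR2 (0.856). MUC5AC and MUC5B, neighbours in the genome, had an r of 0.642, and MUC5AC and MUC16 an r of -0.393. The genes most like each member were LAMC3 (0.988), C1orf198 (0.983) and C4orf19 (0.980) for MUC1, and KLK10 (0.972), HOPX (0.970) and SULT1C2 (0.967) for MUC4. They were PTPRH (0.995), C1orf115 (0.991) and PIK3C2B (0.990) for MUC13, and SH3BP1 (0.991), KCNJ16 (0.988) and TTC39A (0.985) for MUC16. For the secretory members they were KRT4 (0.979), S100A6 (0.974) and PYGB (0.973) for MUC5AC, MAPRE2 (0.988), MTUS1 (0.987) and ECI1 (0.985) for MUC5B, CDKN3 (0.993), CAVIN2 (0.989) and HMGB2 (0.989) for AGR2, MTUS1 (0.965), AKR1C2 (0.964) and FXYD2 (0.959) for SPDEF, and BUB1 (0.969), CTNNAL1 (0.937) and CEP55 (0.936) for TFF1.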

How the data were processed

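RNA was measured in 28 libraries made from 10 ng of total RNA with the SMARTer Pico kit, a stranded kit for low input, per the labels' protocols. The deposited values are raw counts per gene and library. Per the submitters' processing notes, the authors used bcl2fastq 2.20.0, STAR 2.6.0c with GRCh38, and HTSeq 0.12.3. The annotation, the strand setting, trimming and duplicate removal are not given in the sources used here. The counts carry no molecular identifiers, and intervals reflect counting error alone.

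The table's 60487 rows held 60483 genes and 4 reporter sequences. Symbols, loci and exon lengths came from GENCODE 29 (GRCh38), and 56753 genes had a symbol. CPM was computed from each library's total. The test was edgeR 4.0.16's robust quasi-likelihood F test under R 4.3.3 (TMM, edgeR's filter on low counts, Benjamini-Hochberg adjustment over all tested genes at 0.05). The 5 groups of a line made 1 fit, and all 10 groups a joint fit for contrasts between lines. Treatment was the mean of both gates. SE is the fold change divided by the root of F, and folds use a prior count of 0.125. The fit kept 19842 genes in A549 and 13621 in H1944, with biological coefficients of variation of 0.358 and 0.0978 and 8 and 10 residual degrees of freedom. Counts of changed genes leave out mVenus. No pair of replicates agreed within sampling noise. The scripts were tested on simulated data.

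The members and lists were chosen with earlier results of these data known. The genes named were all members, the 3 most significant genes each way of each list per comparison, the 3 most alike genes of each member with at least 5 CPM in a group, and neighbours of MUC5AC and MUC5B. Letters correlated between the GSK126 gates of H1944 (r of 0.121, 0.156 and 0.119 over 11714 genes for A, B and C), which takes the letters there as pairs, from the data and not the labels. Elsewhere the same-letter r between gates was 0.150 and 0.086 (A549 GSK126), 0.115 and 0.438 (A549 TGF-β1) and 0.077, 0.100 and -0.018 (H1944 TGF-β1). Alternatives were the replicate block, DESeq2 1.42.0, its size factors, other filters on low counts, single gates, leaving out each library, and leaving out A549 libraries rich in olfactory receptor reads.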

Additional observations from a re-analysis of the deposited data

Results flagged for a closer look

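The interaction test between the lines, fitted over all genes with edgeR, picked out 8 member effects that differed between H1944 and A549, given as H1944 minus A549 in log2 units. Under GSK126 they were AGR2 at 1.41 ± 0.32 (adjusted p = 0.00277), MUC16 at 2.32 ± 0.65 (adjusted p = 0.0271) and MUC5AC at -1.66 ± 0.49 (adjusted p = 0.0313). AGR2 lay below naive in every GSK126 library of both lines, while MUC16 lay above naive in every H1944 library and below it in every A549 library. Under TGF-β1 they were MUC4 at -5.30 ± 1.00 (adjusted p = 3.95e-04), TFF1 at 5.14 ± 1.03 (adjusted p = 3.17e-04), MUC5B at -4.39 ± 1.04 (adjusted p = 0.00277), AGR2 at 2.47 ± 0.72 (adjusted p = 0.0135) and MUC13 at -0.72 ± 0.22 (adjusted p = 0.0185). TFF1 was too low to be tested in H1944 alone, so its difference comes from the joint fit only. MUC4 in A549 was highest in TGF-β1 high library B, at 13.3 CPM, where olfactory receptor reads summed to 305 CPM. The MUC4 difference passed in all 34 alternatives run, those without that library included, at -5.91 to -4.47 with an adjusted p of at most 0.00369. MUC4 was low in A549, however. Naive libraries A, B and C had 5.65, 0.723 and 2.9 CPM of MUC4 beside 195, 18.9 and 43.8 CPM of olfactory reads. TGF-β1 high libraries had 0, 13.3 and 2.09 CPM beside 6.66, 305 and 33 CPM. TGF-β1 low libraries A and C had 5.47 and 2.96 CPM beside 99.5 and 121 CPM. The part of background reads in MUC4 in A549 was not tested.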

How the results depend on the processing

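Of 94 member values, 64 kept their direction and side of the threshold in every alternative, and of 2294 recomputed values 2192 did, 47 lost the call, 33 gained it and 22 changed sign. These are not all tested values, as some gate comparisons were followed for a part of the members. They were MUC16, AGR2 and SPDEF in A549 under GSK126, MUC16 and AGR2 in A549 under TGF-β1, and MUC1, MUC13 and MUC16 in H1944 under TGF-β1. All calls against naive cells under TGF-β1, all calls of TGF-β1 against GSK126 and all naive line contrasts held throughout. The replicate block changed no count of members in any of the 13 comparisons. With it MUC4 between the H1944 GSK126 gates was 1.44 and MUC5B -0.31, and MUC16 between the H1944 TGF-β1 gates was -0.80. Members changed in A549 under GSK126 were 5 in place of 3 without a filter and without TGF-β1 high library B and naive library A, the 2 A549 libraries richest in olfactory reads, and 1 to 5 when a library was left out. Between the A549 TGF-β1 gates 1 member, MUC16, passed without those libraries, in a run where olfactory reads still differed between the gates. Between the H1944 GSK126 gates 1 passed in place of 2 without a filter and with a 1 CPM filter, and 1 to 3 when a library was left out. Leaving out a library gave 0 to 1 between the H1944 TGF-β1 gates, 1 to 5 for the GSK126 effect between lines, 4 to 7 for the TGF-β1 effect between lines, 6 to 7 for A549 TGF-β1 against naive or GSK126, and 6 to 7 for H1944 GSK126 against naive. The cause was not tested.

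Signs changed for values that had not passed, except MUC4 in H1944 under GSK126, which was 0.04 in the high gate alone. Without the libraries rich in olfactory reads MUC4 in A549 under GSK126 was 0.06 and MUC16 in A549 TGF-β1 against GSK126 was -0.29. MUC16 between the A549 TGF-β1 gates was 0.05 with DESeq2's size factors and 0.02 by DESeq2. Leaving out a library moved MUC1 (-0.05 to 0.71) and MUC4 (-3.59 to 0.06) in A549 under GSK126, MUC4 in A549 under TGF-β1 (-0.39 to 1.24), MUC16 between the A549 TGF-β1 gates (-1.93 to 0.44) and in A549 TGF-β1 against GSK126 (-0.37 to 0.82), MUC1 (-0.00 to 0.10) and MUC13 (-0.16 to 0.07) between the H1944 GSK126 gates, MUC4 in the GSK126 effect (-0.72 to 2.79) and SPDEF in the TGF-β1 effect (-1.89 to 0.94).

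Over all genes, calls in A549 under GSK126 were 1363, against 2674 without the libraries rich in olfactory reads, 2143 by DESeq2 and 676 without GSK126 high library B. Those between the H1944 GSK126 gates were 1011, against 557 without a filter. Scaling CPM by TMM moved 5 of 90 group levels of members by more than 1 SD. Depth limits the secretory members under TGF-β1 in H1944, most of whose libraries held 3 reads or fewer, and TFF1 in A549 under TGF-β1.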
